A study of Rattus norvegicus with 4 samples.

Results

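The microRNA content of extracellular vesicles from PC12 cells was compared between a library titled EVu and a library titled EVd. All 176 microRNA names that averaged at least 100 raw counts over both libraries were taken, out of 594 names listed for PC12 (528 microRNAs and 66 piRNAs, the latter left out) and 836 names listed in either table of the study. The selection used the mean of both libraries, so that 27 names entered with under 100 counts in 1 of them, 12 in EVu and 15 in EVd, among them the names with the highest and the 3 lowest ratios below. The last name inside it averaged 101 counts and the first outside averaged 99.5. PC12 cells were established from a pheochromocytoma of the rat, which arises in the catecholamine-making cells of the adrenal medulla, and they grow neurites in response to nerve growth factor. The labels call it a catecholamine cell, give no treatment, time or culture condition for either library and do not explain the letters u and d, which are therefore used as names. QIAzol and miRNeasy Mini columns were used for RNA, and the QIAseq miRNA kit for libraries. How the PC12 vesicles were collected is not given in the sources used here. The study also holds vesicles of the breast cancer line RMT1, whose values were not compared. Each PC12 group was 1 library, so no difference below has a replicate check and none was tested. Intervals and floors cover counting error only.

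Vesicles released by cells carry small RNAs, and microRNAs are among those most often measured in them. A microRNA is cut from 1 or both arms of a hairpin, named 5p and 3p, and pairs with messenger RNAs mainly through its seed, the run of bases near its 5′ end. Hairpins that lie close together on a chromosome are often cut from 1 shared transcript. MicroRNAs with the same seed, from the same or different transcripts, form a family that can act on overlapping targets.

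The sequences that carry the main contrasts are shown first, as RefSeq gives them for rat (assembly GRCr8), 5′ to 3′, with the seed, bases 2 to 8, in capitals. A RefSeq mature sequence was matched to 161 of the 176 names. The first set is the family of miR-16, because its members went opposite ways between the libraries.
miR-16-5p: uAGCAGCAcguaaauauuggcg
miR-15b-5p: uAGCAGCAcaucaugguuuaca
miR-195-5p: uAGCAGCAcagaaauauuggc
miR-497-5p: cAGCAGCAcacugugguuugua
miR-322-5p: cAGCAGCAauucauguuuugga
The second set is the family of miR-125, in which 1 member comes from the same X-linked cluster as miR-322.
miR-125a-5p: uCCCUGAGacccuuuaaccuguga
miR-125b-5p: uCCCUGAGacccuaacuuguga
miR-351-5p: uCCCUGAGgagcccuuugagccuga
Also shown are a further product of that cluster, whose seed is near that of miR-16 but not the same, and the microRNA with the highest ratio between the libraries.
miR-503-5p: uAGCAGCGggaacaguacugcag
miR-221-3p: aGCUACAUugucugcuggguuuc

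The raw counts summed to 512244 in EVu and 386957 in EVd over all 594 names. The 176 microRNAs held 484177 of these counts (94.5%) in EVu and 367348 (94.9%) in EVd. A count of 0 would allow up to 3 counts, a share of 0.000586% in EVu and 0.000775% in EVd, far under the shares discussed. Both profiles were led by a few names. The 10 most abundant microRNAs held 46.6% of EVu and 47.1% of EVd, 12 microRNAs made up 50% of the counts in either library, and 8 names were in the first 10 of both. In these libraries of whole vesicle preparations, more vesicles carrying a microRNA and more copies of it in each vesicle cannot be told apart, and a share also depends on the counts of every other name.

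The most abundant microRNA in both libraries was miR-16-5p, which is known to restrain cyclins and other cell cycle genes. EVu held 67260 of its counts and EVd 32634, so that its share was 13.1% and 8.43% (log2 ratio of shares, EVd over EVu, -0.64, 95% counting interval -0.66 to -0.62). The next in EVu were let-7i-5p, with 25645 and 11763 counts (-0.72), and let-7c-5p, with 21994 and 16893 (0.02). The let-7 microRNAs repress growth-promoting messages such as those of Ras and Hmga2, and their family is taken up below with its shared seed. In EVd the second place was held by miR-322-5p, a microRNA with cell cycle targets whose human counterpart is called miR-424. Its counts were 5400 in EVu and 23620 in EVd, a share of 1.05% and 6.10% (log2 ratio 2.53, interval 2.49 to 2.58).

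Among the other leading names, miR-125b-5p had 16555 and 18217 counts (log2 ratio 0.54), miR-29a-3p 16378 and 17483 (0.50), and miR-27b-3p 14164 and 14459 (0.43). Thus their raw counts were similar in both libraries, while their shares were higher in the shallower EVd. The ratios of let-7f-5p (21530 and 18046 counts, 0.15), miR-191a-5p (18918 and 15308, 0.10) and let-7b-5p (17663 and 13808, 0.05) lay closest to 0.

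Most of the 176 microRNAs took similar shares of both libraries. The median log2 ratio was 0.04, with quartiles at -0.50 and 0.51, and 139 names (79.0%) lay within 2-fold. At least 2-fold higher shares in EVd were found for 24 names (13.6%) and at least 2-fold lower shares for 13 (7.39%). Among all 472 microRNAs averaging at least 10 counts the corresponding shares were 14.2% and 7.2%, with a median of 0.06, so the abundant names were past 2-fold about as often as microRNAs in general. For the 296 names averaging from 10 to under 100 counts, which are not among the 176, they were 14.5% and 7.09%. The 24 higher names together held 2.39% of EVu and 11.3% of EVd, and the 13 lower names 3.37% and 1.31%. Both groups include names with under 100 counts in the library of their lower share, which passed the minimum only through the other. Examples are miR-19b-1-5p, with 58 counts in EVu, and miR-143-3p, with 77 in EVd. The names past 2-fold were mostly the less abundant: 26.0% of the 73 names averaging 100 to 300 counts and 24.4% of the 45 averaging 300 to 1000, against 14.3% of the 28 averaging 1000 to 3000 and 10% of the 30 averaging at least 3000.

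**Figure D1:**
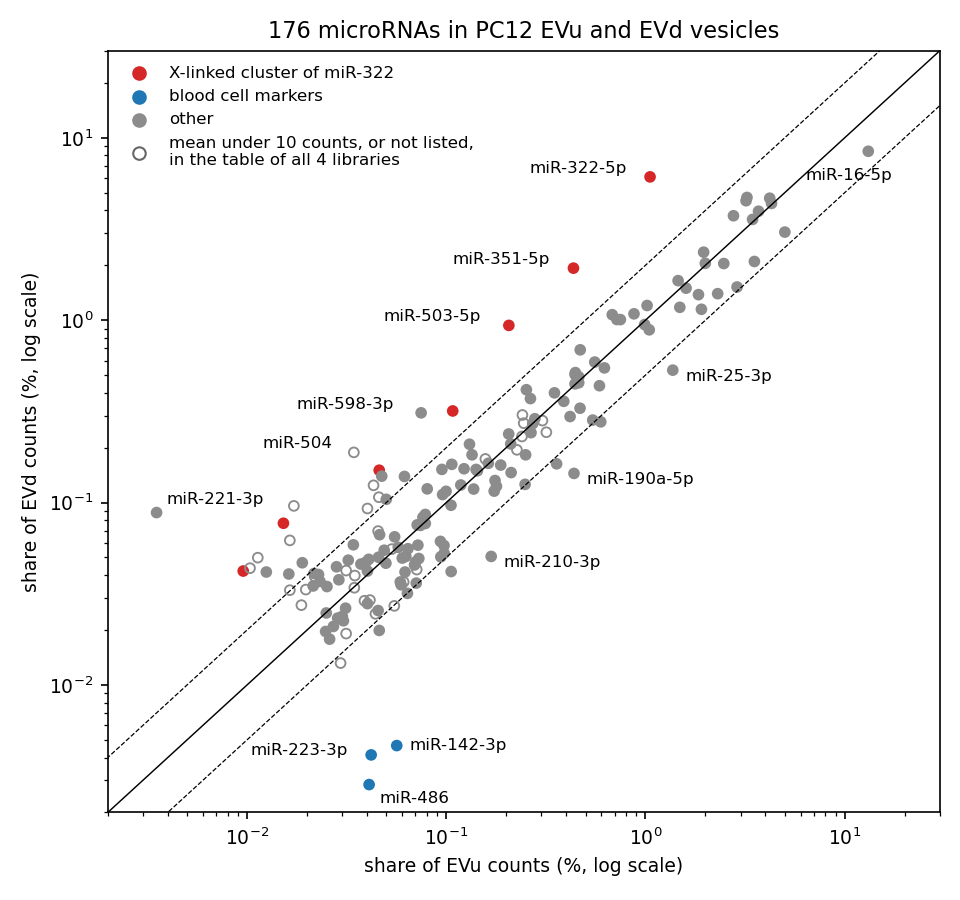
Share of library counts in EVu (horizontal axis, percent, log scale) against EVd (vertical axis, percent, log scale) for the 176 microRNAs, 1 point each, open where the name averages under 10 counts in the table of all 4 libraries or is not listed there; the solid line marks equal shares and the dashed lines 2-fold. Most points lie between the dashed lines, with miR-221-3p and the X-linked cluster of miR-322 (red) above them and miR-486, miR-142-3p and miR-223-3p (blue) below.

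The highest ratio belonged to miR-221-3p, an X-linked microRNA that represses the cell cycle inhibitor p27 and is known to be induced by nerve growth factor in PC12 cells. Only 18 of its counts were in EVu beside 341 in EVd, a 25.1-fold higher share (log2 ratio 4.65, interval 3.97 to 5.42). Its position in the PC12 table is chromosome X, bases 4475359 to 4475381 on the plus strand. The genome build of these positions is not named in the file. In the deposited table that scales all 4 libraries of the study together, the same 2 libraries held 9 and 319 counts of miR-221-3p, again far apart. Its neighbour on the same strand, miR-222-5p, starts at base 4474755 and had 96 and 106 counts (0.55), but 0 in both libraries of that other table. The other arm of that neighbour, miR-222-3p, is known as the close relative of miR-221-3p and was below the count minimum, with 7 counts in EVu and 68 in EVd (3.68).

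The largest group of names with higher shares in EVd was a cluster on chromosome X with the hairpins of miR-322, miR-503, miR-351 and miR-542. It is given in 2 copies, the first between bases 152773490 and 152784261 of the plus strand. The names of miR-322, miR-503 and miR-351 have 2 positions each and those of miR-542 have 3. Counts therefore cannot be divided between the copies. All 7 of its members were at least 2-fold higher in EVd. Their log2 ratios ran from 1.56 to 2.53, with a median of 2.15. Their summed counts were 9599 in EVu and 36977 in EVd, which took the cluster from 1.87% to 9.56% of the library, a 5.10-fold difference (log2 2.35, interval 2.32 to 2.38). In the table of all 4 libraries the same names held 1.92% and 10.2%.

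Within the cluster, miR-322-5p gave most of the counts. The next was miR-351-5p, which carries the seed of miR-125, with 2228 and 7462 counts (log2 ratio 2.15, interval 2.08 to 2.22). Then came miR-503-5p, a microRNA with cyclin targets, at 1056 and 3622 counts (2.18, interval 2.08 to 2.28). The products of miR-542 were the lowest of the cluster, with 552 and 1230 counts for miR-542-3p (1.56) and 236 and 582 for miR-542-5p (1.71). The minor arms miR-503-3p and miR-322-3p were also higher in EVd, with 78 and 298 counts (2.34) and 49 and 163 (2.14). Since they passed the count minimum only through EVd, these ratios are no separate check on the major arms. Chromosome X as a whole held 26 of the 176 microRNAs, of which 10 were past 2-fold on the higher side and 2 on the lower, with a median of 0.35. Of the 10, 7 were those of the cluster, and without it 3 of 19 were higher, with a median of 0.08. The 122 names placed on autosomes had a median of -0.01, with 12 higher and 8 lower.

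**Figure D2:**
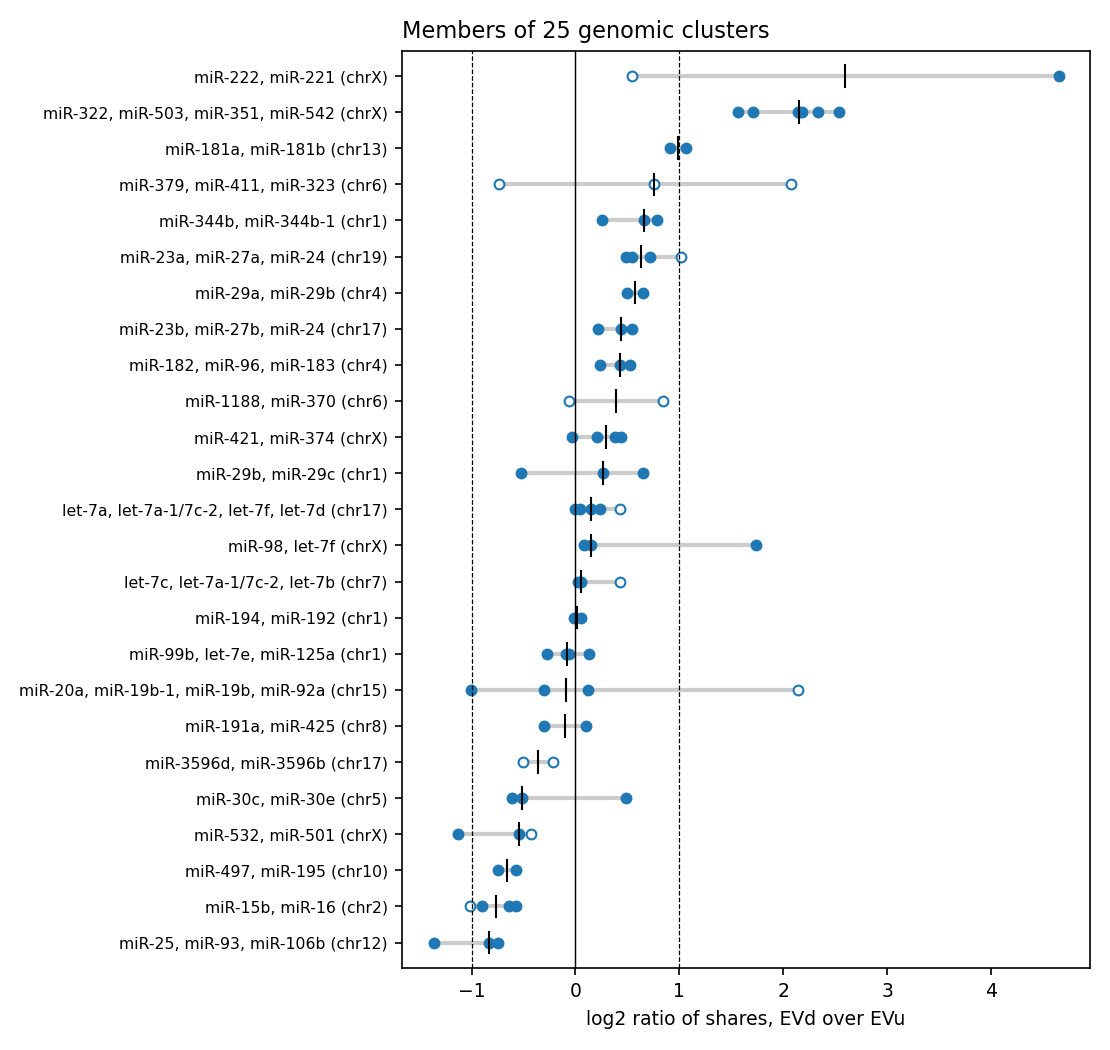
Log2 ratio of shares, EVd over EVu (horizontal axis), for members of 25 genomic clusters, 1 row per cluster and 1 point per member, open where the name averages under 10 counts in the table of all 4 libraries or is not listed there; black ticks are medians, grey bars ranges and dashed lines 2-fold. All 7 members of the X-linked miR-322 cluster lie between 1.56 and 2.53, and those of the clusters of miR-25, miR-15b and miR-497 all lie under 0.

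Outside that cluster, 17 further names had at least 2-fold higher shares in EVd. Those at least 2-fold higher in both deposited tables were miR-221-3p, miR-598-3p, miR-760-3p, miR-676, miR-22-3p and miR-181a-5p. The most abundant was miR-598-3p, with 383 counts in EVu and 1201 in EVd (log2 ratio 2.05, interval 1.89 to 2.22). It had 349 and 1104 in the other table. The widely expressed miR-22-3p had 316 and 538 counts (1.17), and miR-181a-5p, best known from lymphocyte signalling, had 256 and 403 (1.06).

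The remaining 11 higher names were past 2-fold in the PC12 table alone, 9 of them with under 10 counts on average in the other table. The second highest of these, miR-504, had 176 and 729 counts (2.46) but 2 and 0 in the other table, and miR-5132-3p had 88 and 371 (2.48) but 0 and 0. The same holds for miR-19b-1-5p (58 and 193 counts, 2.14), miR-411-3p (53 and 169, 2.08) and miR-3583-5p (84 and 240, 1.92), all at 0 in both libraries there. For 2 names the other table gave a different ratio. The first, miR-98-3p, had 64 and 161 counts (1.74) by the PC12 table but 19 and 17 (0.21) by the other, and miR-671 had 83 and 157 (1.32) but 13 and 10 (-0.01).

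The 3 lowest ratios all belonged to microRNAs of blood cells. The red cell microRNA miR-486 had 210 counts in EVu and 11 in EVd (log2 ratio -3.85, interval -4.87 to -2.98). The white cell microRNAs miR-142-3p and miR-223-3p had 289 and 18 counts (-3.60) and 215 and 16 (-3.34). All 3 were also lower in EVd in the other table, with 181 and 1, 187 and 7, and 155 and 10 counts.

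The blood cell lists that hold these names were also summed, so the sums are not separate from them. The red cell list (miR-451, miR-486 and miR-144) was listed under 5 names that summed to 687 CPM (counts scaled to a common library total) in EVu and 127 in EVd, with a log2 ratio of the sums of -2.44, and 1 of them is among the 176. The white cell list (miR-142, miR-223, miR-150, miR-155 and miR-146a) had 6 names at 1382 and 308 CPM (-2.17), of which 2 are among the 176. The sums rest on few names, since miR-144-5p (26 and 20 counts, 0.03), miR-451-3p (10 and 8, 0.08) and miR-155-5p (13 and 17, 0.79) were not lower in EVd. In EVu, miR-486 gave 210 of the 352 counts of the red cell list. There miR-142-3p and miR-223-3p gave 289 and 215 of the 708 counts of the white cell list. The part of these lists in the other differences was not tested. The 10 other names past 2-fold on the lower side belong to neither list.

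Among those 10, the largest change in share was that of miR-25-3p, cut from a cluster inside the DNA replication gene Mcm7. Its counts were 7024 and 2059, a share of 1.37% and 0.532% (log2 ratio -1.37, interval -1.44 to -1.29). The islet and neuroendocrine microRNA miR-375-3p had 3055 and 1072 counts (-1.11, interval -1.21 to -1.01). A microRNA induced by low oxygen, miR-210-3p, had 861 and 196 (-1.73, interval -1.96 to -1.51). All these intervals stay under 0.

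The same side of 0 was taken by miR-190a-5p with 2242 and 559 counts (-1.60) and by miR-532-5p with 1834 and 631 (-1.13). Fewer counts stood behind miR-378a-3p, a product of the mitochondrial regulator gene Ppargc1b (542 and 162 counts, -1.34), and behind miR-143-3p, known from smooth muscle (236 and 77, -1.21). The last 3 were miR-9b-3p (151 and 51, -1.16), miR-16-3p (281 and 105, -1.02) and miR-92a-3p (327 and 123, -1.01). Of the 13 lower names, 10 were again at least 2-fold lower in the other table. The exceptions were miR-9b-3p, at 0 in both libraries there, miR-16-3p, with 5 and 1 counts, and miR-92a-3p, just inside 2-fold at -0.94.

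Neighbouring hairpins were on the same side of 0 in some clusters and not in others. With hairpins joined when they lay on 1 strand within 10 kb of each other, 74 names fell into 25 clusters, of which 10 were wholly above 0, 5 wholly below and 10 on both sides. Neighbours shared a region of the genome and some shared a hairpin, so they are not independent of each other.

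On the lower side, the cluster of miR-25, miR-93 and miR-106b (chromosome 12, minus strand, 21364981 to 21365412) held 4.94% of EVu and 2.66% of EVd. Its log2 ratios were -1.37 for miR-25-3p, -0.75 for miR-93-5p and -0.83 for miR-106b-3p. The cluster of miR-15b and miR-16 (chromosome 2, plus strand, 184967060 to 184967268) held 13.3% and 8.56%, with ratios from -1.02 to -0.57. The small cluster of miR-497 and miR-195, which bear the same seed as miR-16, was 1.60-fold lower, and that of miR-532 and miR-501 on chromosome X was 2.02-fold lower. Not every X-linked cluster was therefore higher in EVd.

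On the higher side, smaller ratios ran through whole clusters as well. In the cluster of miR-23a, miR-27a and miR-24 (chromosome 19, plus strand, 36294779 to 36295132) all 4 members lay between 0.49 and 1.01. Its paralogous cluster of miR-23b, miR-27b and miR-24 on chromosome 17 ran from 0.21 to 0.55. The mature miR-24-3p is the same in both, so its counts cannot be divided between them. The sensory cluster of miR-183, miR-96 and miR-182, known from hair cells and photoreceptors, ran from 0.24 to 0.53. The pair of miR-181a-5p and miR-181b-5p lay at 1.06 and 0.91.

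The cluster of miR-20a, miR-19b and miR-92a on chromosome 15, a growth-promoting cluster often amplified in lymphoma, was on both sides of 0. Its members were miR-19b-1-5p at 2.14, miR-19b-3p at 0.12, miR-20a-5p at -0.31 and miR-92a-3p at -1.01. Of these, miR-19b-3p and miR-92a-3p have 2 positions each, so their counts cannot be assigned to this cluster alone. The summed share of the cluster was 0.214% of EVu and 0.215% of EVd. In the table of all 4 libraries it was 0.187% and 0.140%: there miR-19b-1-5p was at 0 in both libraries, miR-19b-3p was at -0.21, and miR-20a-5p and miR-92a-3p were again below 0.

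Grouping by seed gave 131 distinct seeds, and 46 names fell into 16 families of at least 2 members. Names with no matched sequence are in no family here, among them miR-15a-5p (301 and 142 counts, -0.68), miR-30b-5p (-0.13) and miR-30d-5p (-0.73). The largest difference within a family was in that of miR-16, with the seed AGCAGCA printed above. Its 5 members summed to 73837 counts in EVu and 56823 in EVd, a share of 14.4% and 14.7% (log2 ratio of the sum 0.03, interval 0.01 to 0.04). Behind this near-equal total, miR-322-5p was at 2.53 and the other 4 were between -0.74 and -0.57. In the table of all 4 libraries the family also had close totals, 15.6% and 16.2%.

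The family of miR-125, with the seed CCCUGAG, did not balance in this way. It held 6.14% of EVu and 8.68% of EVd (log2 0.50, interval 0.48 to 0.52), with miR-351-5p at 2.15, miR-125b-5p at 0.54 and miR-125a-5p at -0.27. The let-7 family, 9 names with the seed GAGGUAG, held 20.6% and 19.3% (-0.10, interval -0.11 to -0.08). Its members ran from -0.72 for let-7i-5p to 0.15 for let-7f-5p, a much narrower range than in the family of miR-16.

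In further families the sum itself differed. The 3 members of the miR-29 family, known for repressing collagen and other matrix genes, held 5.84% of EVu and 7.95% of EVd (log2 ratio of the sum 0.45). All 3 lay above 0. The family of miR-30, here 3 miR-30 names with miR-384-5p, held 4.51% and 3.36% (-0.43), but not all its members were lower: miR-30a-5p was at -0.92 and miR-30e-5p at -0.51, miR-384-5p at 0.19 and miR-30c-5p at 0.49. The pair of miR-25-3p and miR-92a-3p, with the seed AUUGCAC, held 1.44% and 0.564% (-1.35, interval -1.42 to -1.28), although the 2 come from different clusters.

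**Figure D3:**
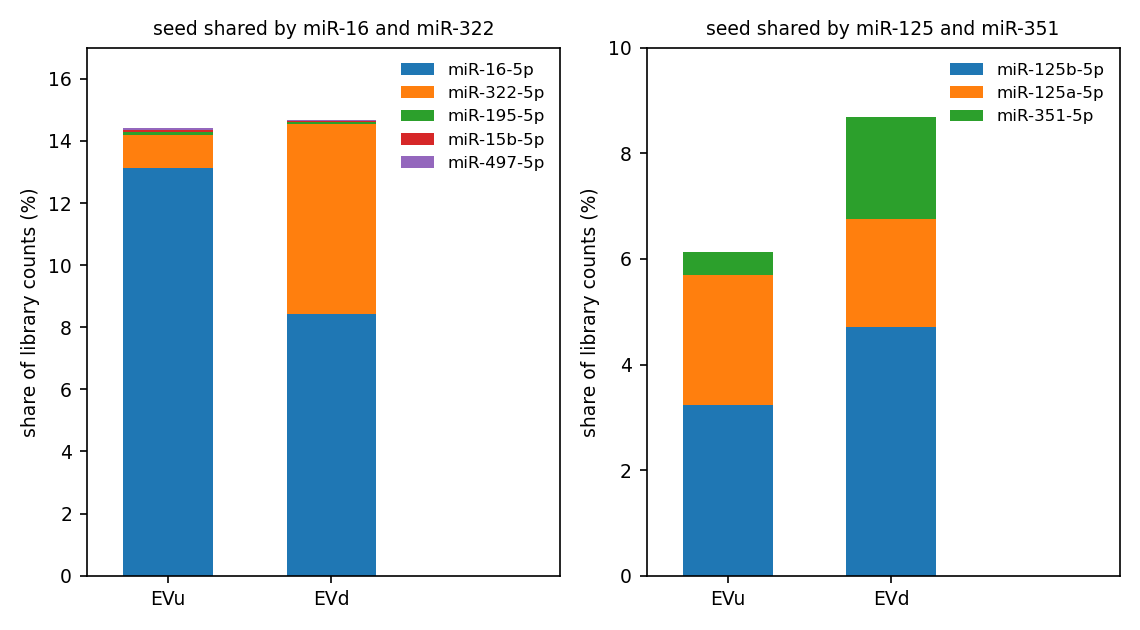
Share of library counts (vertical axis, percent) held by members of the seed families of miR-16 (left) and miR-125 (right), stacked by member, in EVu and EVd. The stack of miR-16 has nearly the same height in both libraries, 14.4% and 14.7%, with more of it from miR-322-5p in EVd, while that of miR-125 is 6.14% and 8.68%.

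By arm, 81 names were 5p products, 75 were 3p products and 20 had no arm in their name. The 5p names held 70.4% of EVu and 67.7% of EVd, with a median log2 ratio of -0.03. The 3p names held 20.1% and 22.9%, with a median of 0.13. At least 2-fold higher shares were found for 9 of the 5p names (11.1%) and 11 of the 3p names (14.7%), and at least 2-fold lower shares for 2 (2.47%) and 10 (13.3%).

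Both arms were among the 176 names for 30 arm pairs, in which let-7a-1-3p/7c-2-3p and miR-344b-5p each count in 2 pairs. In 22 pairs the arms lay on the same side of 0, and the median gap between the log2 ratios of the arms was 0.32. For the miR-322 hairpin the 5p arm made up 99.1% of the pair in EVu and 99.3% in EVd. The 5p share of miR-503 was 93.1% and 92.4%, and that of miR-16 was 99.6% and 99.7%. A share this near 100% shows little of a shift, and the log2 ratios of the arms were 0.39 apart for miR-322 and 0.38 for miR-16, above the median gap. They were 0.16 apart for miR-503 and 0.15 for miR-542, whose 5p share was 29.9% and 32.1%. In the table of all 4 libraries the arms of miR-322 were only 0.02 apart, and miR-16-3p had only 5 and 1 counts.

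Only 4 pairs had arms whose ratios were at least 2-fold apart. In the pairs of miR-19b, miR-3583 and miR-98 the arm with the higher ratio passed the count minimum only through EVd. These arms were miR-19b-1-5p (58 and 193 counts), miR-3583-5p (84 and 240) and miR-98-3p (64 and 161). Their gaps may therefore be enlarged by the selection of names. The higher arm of the remaining pair, miR-1839-3p, had 206 and 359 counts. For miR-19b the 5p share was 12.9% (9.96 to 16.4, exact binomial interval) in EVu but 37.5% (33.3 to 41.9) in EVd. The 3p arm of that pair has 2 positions, so its counts cannot be assigned to 1 hairpin alone. For miR-3583 the 5p share was 10.3% and 29.3%. It was 85.1% and 64.5% for miR-98, and 55.3% and 33.4% for miR-1839. In each pair the arm with the higher ratio was at 0 in both libraries of the table of all 4 libraries, except miR-98-3p, with 19 and 17 counts there. Of the 22 pairs with both arms averaging at least 10 counts in that table, 0 had arms at least 2-fold apart. The next 4 pairs had smaller shifts of the 5p share, from 52.2% to 38.1% for miR-3068, 32.2% to 40.9% for miR-320, 93.2% to 90.1% for miR-532 and 2.01% to 1.17% for miR-29c. For miR-3068 the arms were 0.83 apart on the log2 scale by the PC12 table but 0.15 by the other, with 60 and 56 counts of the 5p arm and 31 and 32 of the 3p arm there.

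**Figure D4:**
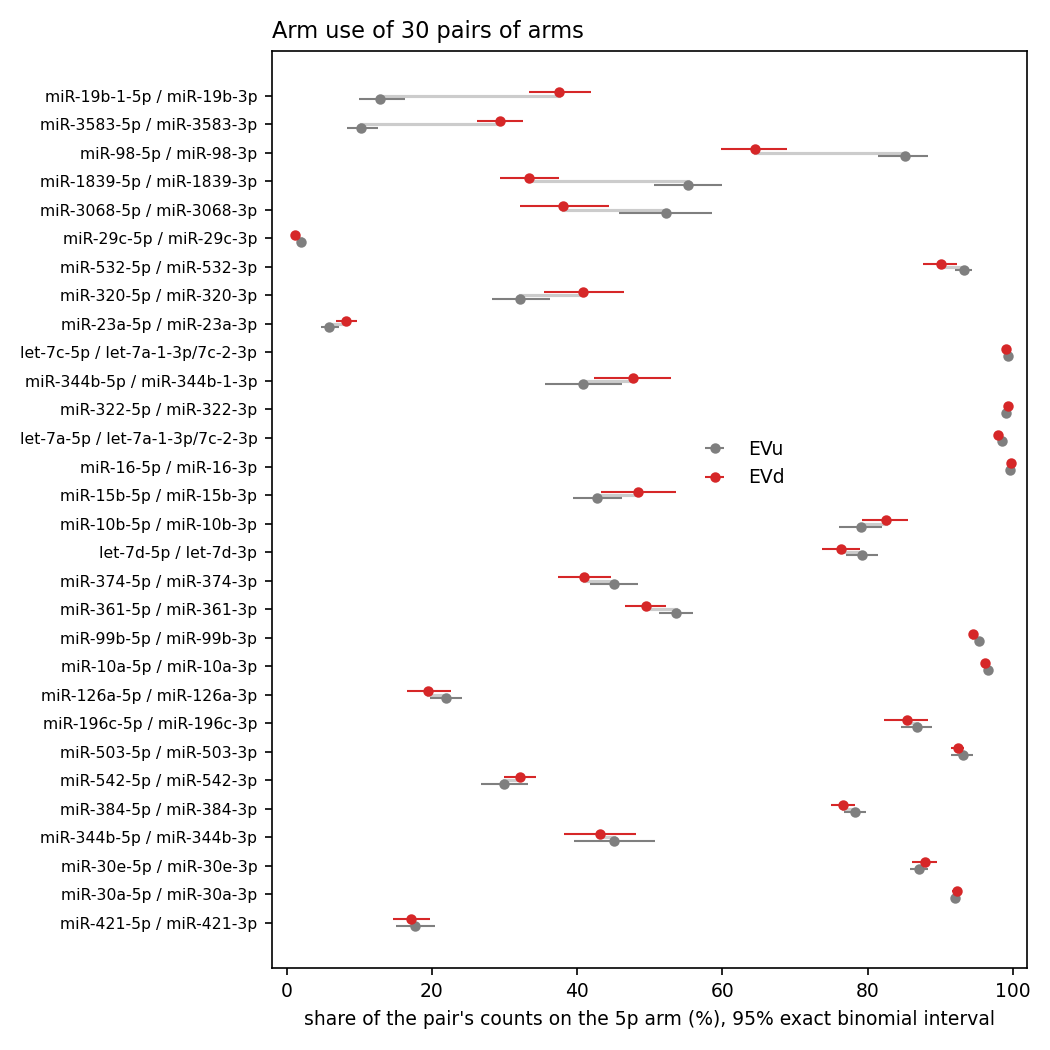
Share of an arm pair's counts on the 5p arm (horizontal axis, percent, points with exact binomial 95% intervals) in EVu (grey) and EVd (red) for 30 pairs, ordered by the gap between the arms' log2 ratios. The pairs of miR-19b, miR-3583, miR-98 and miR-1839 have the largest gaps.

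A further group is recognised by position and sequence: 11 names lie on the strand opposite a more abundant microRNA and have a reverse complement sequence. The pairs below, with every base in lower case since no part is marked, are complementary over all 22 bases.
let-7a-5p: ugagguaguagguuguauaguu
miR-3596a: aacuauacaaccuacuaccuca
miR-125b-5p: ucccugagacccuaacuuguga
miR-3588: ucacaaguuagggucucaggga
The 11 names held 8766 counts (1.71%) in EVu and 6297 (1.63%) in EVd, and 10 of them were at 0 in both libraries of the table of all 4 libraries. The exception was miR-3065-5p, opposite miR-338-3p, with 47 and 22 counts there. Whether reads were assigned by strand is not given in the sources used here, so reads of these names and of their partners may not be separable.

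Against their partners, 9 of those 10 names had lower ratios, by -0.66 to -0.33 on the log2 scale. For miR-3596a, with 1629 and 940 counts, the ratio was -0.39 beside 0.04 for let-7a-5p. For miR-3588, with 1254 and 1054, it was 0.15 beside 0.54 for miR-125b-5p, and for miR-3587, with 1235 and 1169, it was 0.33 beside 0.65 for miR-29b-3p. The order of the names therefore followed that of the partners in these 3 pairs, at a lower level. The remaining name, miR-218b (805 and 671 counts), was at 0.14 beside -0.72 for miR-218a-5p.

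Each name was then set against the table of all 4 libraries. Once taken out of log2, the normalized values of that table were whole multiples of 1 step per library within 0.1. Counts could therefore be recovered. These summed to 436840 in EVu and 338233 in EVd. Of the 176 names, 175 are listed there, 23 at 0 in both libraries, 9 with fewer than 10 counts on average and 143 with at least 10. Among the 143, 129 lay on the same side of 0 in both tables and 134 had ratios within 1.5-fold of each other, with a median absolute difference of 0.03. Of the 143, by the counts of that table, 14 (9.79%) were at least 2-fold higher in EVd and 12 (8.39%) were at least 2-fold lower. Of the 24 higher names of the PC12 table, 13 were again at least 2-fold higher, among them the 7 names of the miR-322 cluster.

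Some names did differ between the tables. The counts of the 23 names at 0 made up 2.28% of EVu and 2.57% of EVd, and 7 of the 24 higher names were among them. The ratio of miR-127-3p, an imprinted microRNA, was 0.57 by the PC12 table (411 and 460 counts) but -4.02 by the other (only 21 and 1). The ratio of miR-153-3p was -0.97 and 0.83, and that of miR-30c-5p was 0.49 and -0.63. Such names have no ratio that holds in both tables.

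**Figure D5:**
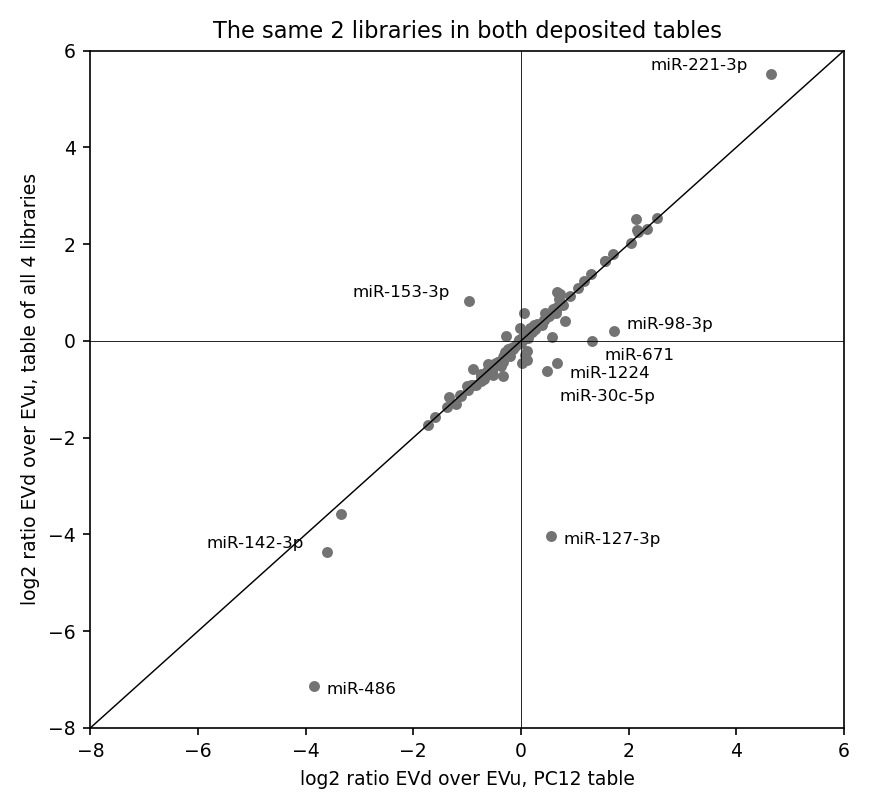
Log2 ratio of shares, EVd over EVu, in the PC12 table (horizontal axis, log2) against the same ratio from the table of all 4 libraries (vertical axis, log2) for the 143 names with at least 10 counts on average there. Points on the diagonal have equal ratios; the labelled names are over 1.5-fold apart.

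Lists of microRNAs linked to the biology of these cells were read beside these values. All of them were chosen with earlier results of these data known. Neuroendocrine microRNAs were present in quantity, as the labelled cell type implies: the list of miR-375, miR-7a and miR-7b summed to 20691 CPM in EVu and 19356 in EVd. Its 2 abundant members lay on different sides of 0, with miR-375-3p at -1.11 and miR-7a-5p, at 7468 and 6374 counts, at 0.18. Markers of liver (miR-122, miR-192 and miR-194) summed to 3799 and 3577 CPM, most of it from miR-192-5p (1426 and 1115 counts, 0.05). The other liver names below the count minimum were lower in EVd, at -1.92 for miR-122-5p (50 and 10 counts), -1.56 for miR-122-3p (74 and 19) and -1.95 for miR-192-3p (102 and 20). Markers of epithelium summed to 726 and 672 CPM and those of muscle to 78.1 and 106.

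The list of microRNAs linked to neurotrophin signalling or neurite growth in PC12 (miR-221, miR-222, miR-132, miR-212, miR-21, the miR-29 family, miR-125b and miR-181a) had 20 listed names and 9 among the 176. Of those 9, 8 lay above 0 and 2, miR-221-3p and miR-181a-5p, were at least 2-fold higher, with a list median of 0.54. Over all 176 names, 93 lay above 0, 13.6% were at least 2-fold higher and the median was 0.04. One of the 8, miR-222-5p, was at 0 in both libraries of the other table. The 9 names are not independent: miR-221-3p and miR-222-5p are neighbours, and the miR-29 names share hairpins or clusters. The summed level was 94430 CPM in EVu and 132415 in EVd (log2 0.49), most of it from miR-125b-5p, miR-29a-3p and miR-29c-3p. Between these, miR-29b-3p was at 0.65, miR-29c-3p at 0.27 and miR-21-5p, a widely expressed growth-linked microRNA, at 0.21. The single member below 0 was miR-29c-5p, the minor arm of its hairpin, with 206 and 108 counts (-0.53). Below the count minimum, miR-132-3p, which is induced through CREB in neurons, had 35 and 43 counts (0.70).

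The neural list (miR-9a, miR-124, miR-128, miR-129, miR-137, miR-138, miR-218a, miR-153, miR-219a and miR-384) had 20 listed names, 8 of them among the 176. Of these, 4 lay above 0 and 4 below, and 0 were past 2-fold. The summed level was 41715 CPM in EVu and 30882 in EVd (log2 -0.43). Most of that difference was in miR-218a-5p, a microRNA abundant in motor neurons, with 11800 and 5406 counts (-0.72, interval -0.77 to -0.67). The brain microRNAs miR-128-3p (3009 and 1691 counts, -0.43) and miR-9a-5p (2143 and 1146, -0.50) were also lower. By contrast both arms of miR-384 were higher, with 2269 and 1949 counts for miR-384-5p (0.19) and 629 and 593 for miR-384-3p (0.32), as were miR-129-5p (511 and 446, 0.21) and miR-138-2-3p (165 and 187, 0.59). The last of the 8, miR-153-3p, had 362 and 140 counts (-0.97). The split into 4 and 4 depends on the table, since by the other table miR-153-3p was at 0.83 (16 and 22 counts) and miR-138-2-3p at 0.08 (33 and 27).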

How the data were processed

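Extracellular vesicle microRNA was compared between the single PC12 libraries EVu and EVd. Per the file headers, the authors deposited raw counts per name and normalized log2 values for PC12, and log2 normalized values for all 4 libraries of the study. The submitters' processing notes name mm10, which is a mouse assembly, although the names are those of rat. The sources used here give no aligner, counter or scaling, and leave unsaid if molecular identifiers were collapsed. Loci are printed as the deposited PC12 table gives them.

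Shares were computed from the deposited counts over the total of all 594 names (512244 in EVu and 386957 in EVd), with exact Clopper-Pearson 95% intervals, and log2 ratios with exact conditional binomial intervals and no pseudocount. No test was made with 1 library per group, and at least 2-fold was the rule for calling a name higher or lower. The calculation of intervals was checked on simulated counts. Python 3.11.15, numpy 2.4.6, scipy 1.17.1 and pandas 2.3.3 were used, with edgeR 4.0.16 and DESeq2 1.42.0 in R 4.3.3 for alternative scaling factors only.

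Named were the 10 most abundant names, the 12 highest and 12 lowest ratios, clusters wholly past 2-fold, the 8 hairpins with the most different arms and the members of the lists. Names outside these were chosen after their values were seen. The members and lists were chosen with earlier results of these data known. Alternatives were other scalings, count minimums, folds, pseudocounts, cluster distances and the other table.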

Additional observations from a re-analysis of the deposited data

Results flagged for a closer look

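PiRNAs, which silence transposons in germ cells, were left out of the comparison but were counted in both libraries. Their 66 names held 3.30% of the counts in EVu (16903 counts) and 2.79% in EVd (10782 counts), above the limit that a count of 0 allows. They are given because they lie in data that the comparison did not use.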

How the results depend on the processing

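No paired analysis was possible because each group is 1 library and no result comes from a test, and for the same reason no replicate could be left out. The counts of at least 2-fold higher and lower names (24 and 13) stayed within 1.5 times under every scaling and pseudocount tried, and the median ratio moved by less than 0.1 in every alternative. It was 0.04 and ran from 0.02 to 0.05 over the scalings. The higher count was 71 of 528 names with no count minimum, 67 of 472 at a minimum of 10 and 5 of 82 at 500. The lower count was 52, 34 and 5 of the same names. At a fold of 1.5 they were 39 and 35 of 176, and at a fold of 3 they were 14 and 5. In the table of all 4 libraries 14 of 143 names were higher. The 99 names counted within 20% of each other in the tables gave counts of 9 and 7. Of the 143 names averaging at least 10 counts in that table too, 15 were higher, an alternative chosen after seeing the data. Arm pairs at least 2-fold apart numbered 4 of 30, and 7 of 30 at a fold of 1.5. They were 0 of 22 in the table of all 4 libraries and 38 of 156 with a minimum of 10 counts per arm. The choice of table changed the values of single names most, with 8 of the 10 moved values among 61 named. In the table of all 4 libraries, 42 of the 61 stayed within their counting intervals and 8 fell outside them. Those of the 61 that averaged under 10 counts there were not compared. There 3 names within 2-fold changed sign: miR-153-3p from -0.97 to 0.83, miR-19b-3p from 0.12 to -0.21 and miR-3068-5p from -0.01 to 0.27. Under 2 scalings let-7c-5p crossed 0. Also chosen after seeing the data, 10 lower names were left without the blood markers and 17 higher names without the miR-322 cluster. These 2 counts are subtractions from the 13 and 24 and could not have come out otherwise.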

Other observations

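Below the count minimum stand 8 further names of the blood cell lists. At least 2-fold lower in EVd were 3 of them, miR-451-5p with 70 counts in EVu and 5 in EVd (log2 ratio -3.40), miR-142-5p with 77 and 8 (-2.86) and miR-144-3p with 36 and 5 (-2.44). Smaller ratios were those of miR-150-5p (99 and 51 counts, -0.55) and miR-146a-5p (15 and 9, -0.33), and the other 3, miR-144-5p, miR-451-3p and miR-155-5p, lay above 0.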
